A study of Mus musculus with 10 samples.

Results

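The repressive histone mark H3K27me3 was followed at 7 genes of the Prdm family in blood stem cells of the fetal liver. The genes are given by name, with no threshold on a measured value, but they were named with earlier results of these data known, so their count of peaks is a description: Prdm1, Prdm6, Prdm8, Prdm12, Prdm13, Prdm14 and Prdm16. They are 7 of 21938 protein-coding genes, and 64 of the 23606 deposited H3K27me3 peaks lay at their promoters or gene bodies. A promoter ran from 5 kb before to 100 bp after a transcription start site of any annotated transcript. The mark was profiled by CUT&Tag, in which an antibody-guided transposase cuts and tags DNA next to the mark, in LT-HSCs (sorted as LSKCD48-CD150+) from untreated E14.5 mouse fetal liver. There were 3 libraries from IκBα WT and 3 from IκBα KO embryos, the KO being the germline targeted Nfkbia line bred from heterozygous parents, so that the loss of the NF-κB inhibitor IκBα is not limited to blood cells. A further 4 samples, which profile IκBα itself, were not analysed here. Reads were 75 bp long in replicates 1 and 2 and 50 bp long in replicate 3 of each genotype, per the labels. The study's texts differ on how many of these replicates are independent, and nothing ties a library to single embryos, so p-values measure only the spread between libraries, which may be technical.

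Prdm proteins carry a PR domain, which is related to the SET domain of histone methyltransferases, and most also carry zinc fingers that bind DNA. H3K27me3 is laid down by Polycomb repressive complex 2 and is typically found at CpG-rich promoters of developmental regulators that are silent in the cell at hand. Members of the family direct fate choices in the germline (Prdm1, Prdm14), the nervous system (Prdm8, Prdm12, Prdm13), smooth muscle (Prdm6) and brown fat and blood stem cells (Prdm16).

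The libraries differed widely in how many peaks were called, from 1047 in WT replicate 3 and 2325 in KO replicate 3 to 6013 in WT replicate 2. The peak lists hold no read totals, and those the study lists were not used here. The total signal of a peak is the sum of fragment coverage over its bases, and no called peak had a total below 3344 in WT replicate 3 or below 6616 to 7307 in the other libraries. A gene without a peak is therefore one below these limits, not one shown to lack the mark. Nfkbia, the targeted gene, had a peak in 0 of 6 libraries, which leaves the genotype labels unchecked. Promoter peaks were called at 0 of 12 blood stem and progenitor markers, 0 of 5 hepatocyte markers, 0 of 3 erythroid markers and 1 of 4 endothelial markers (Kdr, in WT replicate 2). The mark is repressive, so these counts describe peaks and not expression. They also average over sorted cells, so that a smaller share of marked cells and less mark per cell cannot be told apart.

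All 7 members had a promoter peak in at least 1 library, whereas 15.8% of coding genes did. Prdm6, Prdm8 and Prdm13 were called in all 6 libraries, a state shared by 2.65% of coding genes. In all 3 WT libraries 3 of 7 members were called against 3.01% of coding genes, and in all 3 KO libraries 5 of 7 against 7.12%. The additional members in KO were Prdm12 and Prdm14, both of which lacked a promoter peak in WT replicate 3 alone, though with promoters of 1 kb either side of a start site Prdm14 was called there too. In the 4 libraries of 75 bp together, 6 of 7 members were called against 8.53% of coding genes, the exception being Prdm1. No member (0 of 7) was called in all 3 libraries of 1 genotype and in none of the other, as 0.0957% of coding genes were. By library, WT replicate 1 called 7 members (and 10.6% of coding genes), WT replicate 2 called 7 (12.9%) and WT replicate 3 called 3 (3.46%). KO replicate 1 called 7 (12.9%), KO replicate 2 called 6 (12.2%) and KO replicate 3 called 5 (8.06%).

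**Figure D1:**
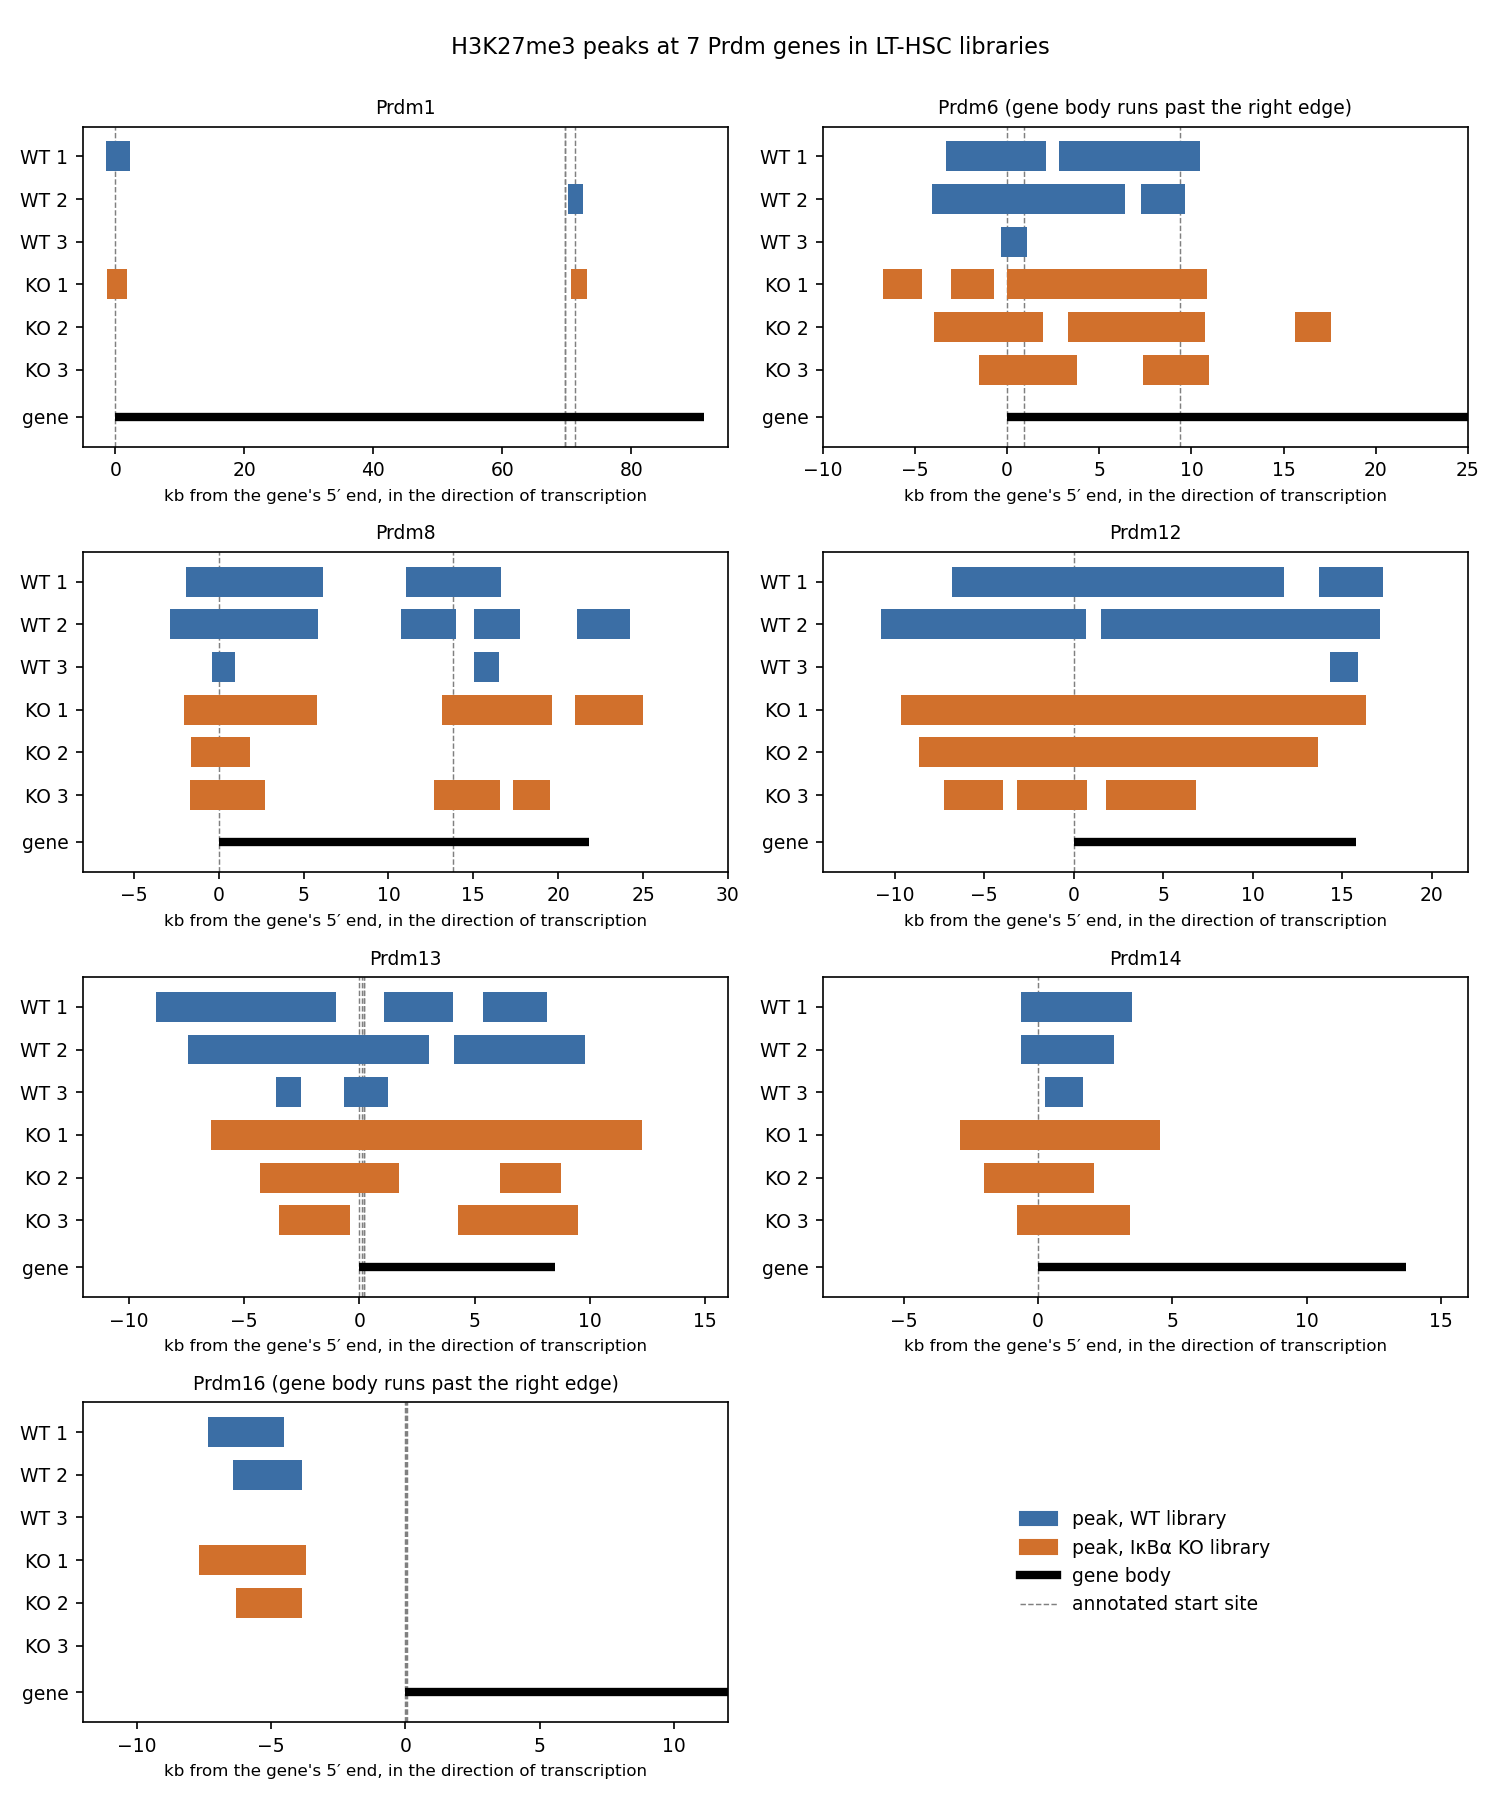
Each panel shows 1 gene, with kb from its 5′ end in the direction of transcription on the horizontal axis and 1 row per library; bars are H3K27me3 peaks (blue WT, orange IκBα KO), the black line is the gene body and dashed lines are annotated start sites. Prdm12 and Prdm13 are covered from end to end in KO replicate 1, Prdm16 has peaks only upstream of its start site, and WT replicate 3 has the shortest peaks or none at each gene.

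The promoter sequences show what these calls lay over. The 250 bases before the RefSeq start site (GRCm38.p6) are given for the 5 of 7 members that matched the RefSeq promoter table, with each CG dinucleotide in capitals. A single peak spanned all 250 bases at Prdm12 in 5 libraries, at the second start site of Prdm8 in 4 and at Prdm13 in 4. At Prdm1 and Prdm16 0 libraries had a peak there. The windows were chr2:31639787-31640036 (+) for Prdm12, chr4:21685964-21686213 (-) for Prdm13, chr5:98180619-98180868 (+) for Prdm8, chr10:44458749-44458998 (-) for Prdm1 and chr4:154636874-154637123 (-) for Prdm16.
Prdm12: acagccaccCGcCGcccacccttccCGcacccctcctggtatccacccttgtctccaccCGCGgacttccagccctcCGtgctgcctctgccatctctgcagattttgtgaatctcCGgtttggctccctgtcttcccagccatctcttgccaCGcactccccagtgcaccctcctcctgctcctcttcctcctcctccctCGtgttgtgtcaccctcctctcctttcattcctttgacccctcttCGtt
Prdm13: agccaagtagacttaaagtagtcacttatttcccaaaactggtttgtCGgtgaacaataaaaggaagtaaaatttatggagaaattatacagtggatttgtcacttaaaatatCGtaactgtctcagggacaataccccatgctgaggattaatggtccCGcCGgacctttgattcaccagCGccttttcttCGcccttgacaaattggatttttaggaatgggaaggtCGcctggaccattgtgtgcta
Prdm8: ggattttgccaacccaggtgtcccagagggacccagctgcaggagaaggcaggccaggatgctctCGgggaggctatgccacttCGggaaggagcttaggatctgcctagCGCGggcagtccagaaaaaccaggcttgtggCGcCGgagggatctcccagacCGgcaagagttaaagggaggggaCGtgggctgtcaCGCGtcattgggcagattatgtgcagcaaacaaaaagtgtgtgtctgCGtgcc
Prdm1: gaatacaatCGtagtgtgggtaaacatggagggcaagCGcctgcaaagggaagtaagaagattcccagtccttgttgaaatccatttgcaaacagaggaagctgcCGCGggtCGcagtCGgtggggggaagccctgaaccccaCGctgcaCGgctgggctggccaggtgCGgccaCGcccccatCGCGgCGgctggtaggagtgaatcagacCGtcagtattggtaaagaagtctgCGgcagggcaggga
Prdm16: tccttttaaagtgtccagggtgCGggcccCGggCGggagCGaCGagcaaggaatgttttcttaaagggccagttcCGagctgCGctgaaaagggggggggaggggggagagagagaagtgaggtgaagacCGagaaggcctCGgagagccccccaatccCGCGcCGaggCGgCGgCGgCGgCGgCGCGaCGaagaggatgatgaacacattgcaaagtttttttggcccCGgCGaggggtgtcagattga

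The CG content of a start site did not order the calls in one way. The windows held 10 CG dinucleotides at Prdm12, 7 at Prdm13 and 11 at Prdm8, against 15 at Prdm1 and 22 at Prdm16, where no peak lay, and the median over 32851 RefSeq promoters was 6. In 1 kb centred on each GENCODE start site, Prdm16 had 115 CG dinucleotides at its first start site, more than 94.6% of coding genes have at their CG-richest start site, without a peak over it. Prdm1 had 60 at a pair of coding start sites that no peak covered and 34 and 35 at its 2 covered ones. At Prdm6 and Prdm8 the order ran the other way. Prdm6 had 67 and 108 at the start sites covered in all 6 libraries, 36 at one covered in 5, and 21 and 12 at those covered in 0. Prdm8 had 55 at the start site covered in 6 libraries and 38 at the one covered in 4. Among all coding genes a promoter peak was called in at least 1 library at 20.6% of CpG-rich genes (observed over expected CpG of at least 0.6 and GC of at least 50%) and at 10.9% of the others.

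**Figure D2:**
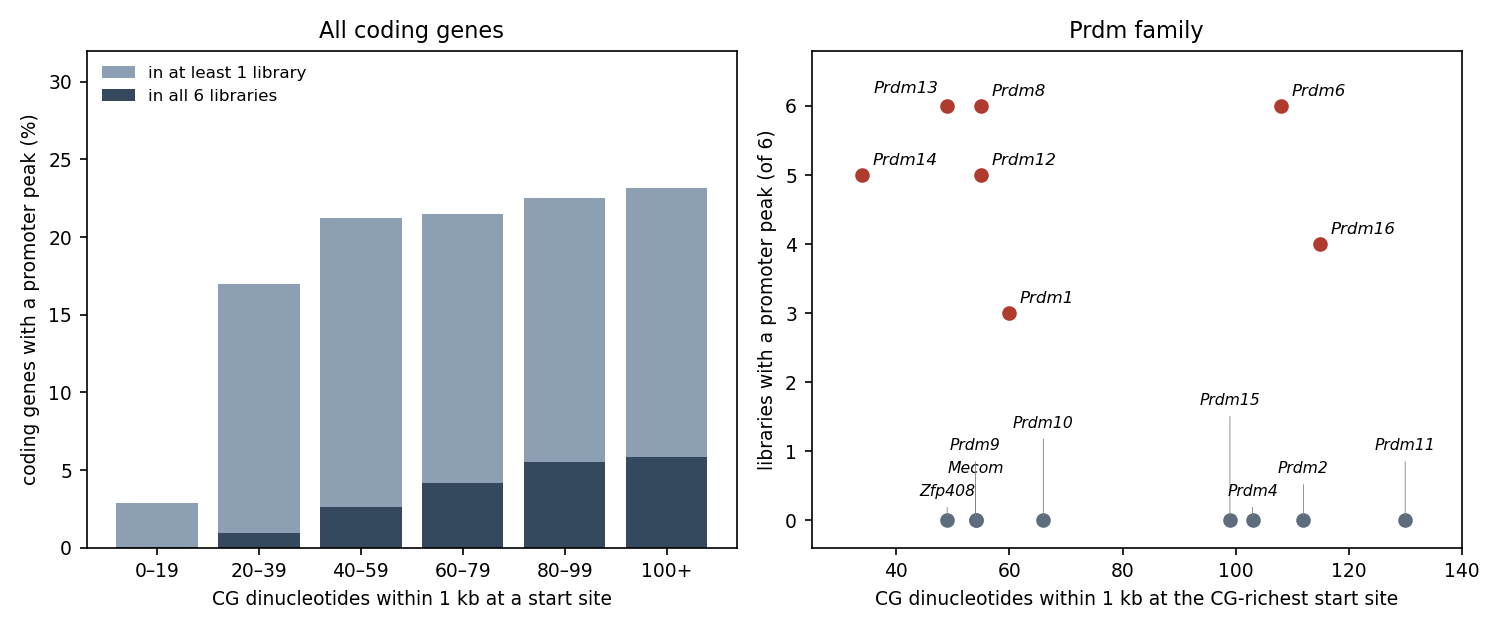
Left, percentage of coding genes with a promoter peak in at least 1 library (light) or in all 6 (dark) by the number of CG dinucleotides within 1 kb at the CG-richest start site. Right, the same number for each Prdm gene against the number of libraries with a promoter peak, with the 7 members in red and 8 other family genes in grey at 0 libraries.

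Other genes of the family carried no promoter peak. Prdm2, Prdm4, Prdm9, Prdm10, Prdm11, Prdm15, Mecom and Zfp408 had a promoter peak in 0 of 6 libraries, so 0 of these 8 were called, against 15.8% of all coding genes and 20.6% of CpG-rich ones. They include Mecom, which encodes the stem cell regulator Evi1, and Prdm9, which places meiotic recombination sites. All 8 were CpG-rich, as were 5 of the 7 members, and their CG counts of 49 to 130 per 1 kb overlapped those of the members (34 to 115). With 8 genes, 0 calls do not set them apart from the 15.8% or 20.6%. They are also what was left after the members were named with earlier results known. Their contrast with the members is therefore a description.

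Prdm12, needed for the development of pain-sensing neurons, had the highest total signal of the members in each 75 bp library, but not in the replicate 3 libraries. Its peaks summed to a total signal of 98904, 121998 and 4699 across WT replicates 1 to 3 and of 129014, 110835 and 42775 across KO replicates 1 to 3. In these totals, which were not scaled to depth, all 75 bp libraries were high, both replicate 3 libraries were low, and the genotypes overlapped. Log2 values were also centred on the median of their library over coding genes called in at least 3 libraries. They were 2.60, 2.44 and 0.49 in WT replicates 1 to 3 and 2.48, 2.52 and 2.27 in KO. On that scale only WT replicate 3 stood apart, and the genotypes again overlapped. Merged over all libraries, the peaks spanned 28.0 kb (chr2:31629296-31657333), past both ends of the 15.8 kb gene. The span also held the promoters of Gm13425, an antisense gene, and Gm13424, a processed pseudogene. The widest single peak was 25952 bp, in KO replicate 1, and 0 bp were shared by all 6 libraries. Peaks covered 89.8% to 100% of the gene and promoter in the 75 bp libraries, 48.1% in KO replicate 3 and 7.04% in WT replicate 3. The strongest Prdm12 peak ranked above 98.7% to 99.9% of all peaks of its library in the 75 bp libraries. In WT replicate 3 the only peak was 1574 bp long and lay at the 3′ end of the gene, 14.3 kb from the start site.

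Prdm13, a repressor that works with Ptf1a in the specification of dorsal spinal cord neurons, was called in every library. Its total signal was 55048, 57278 and 8858 in WT replicates 1 to 3 and 78714, 36539 and 29370 in KO replicates 1 to 3. In these unscaled totals WT replicate 3 was lowest, and the other WT values lay within the KO range. The centred log2 values were 1.76, 1.35 and 1.41 in WT and 1.77, 0.92 and 1.73 in KO. On that scale KO replicate 2 was lowest, and every WT value lay within the KO range. Peaks covered 72.7%, 91.8% and 22.4% of the locus in WT and 100%, 62.5% and 54.0% in KO, also with overlap. The start sites themselves lay in a gap between peaks in WT replicate 1 and in KO replicate 3, and under a peak in the other 4 libraries. The 973 bp that all 6 libraries shared lay upstream (chr4:21688495-21689467), not over the start sites.

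Prdm8 encodes a repressor that acts with Bhlhe22 in cortical neurons and was called in every library. Its total signal was 63123, 67329 and 8895 in WT replicates 1 to 3 and 81017, 15960 and 45541 in KO replicates 1 to 3. KO replicate 2 stood apart from the other 75 bp libraries, with a single peak of 3477 bp where they had 2 to 4 peaks. The gene has 2 start sites 13.8 kb apart. The upstream one was covered in all 6 libraries, with 1406 bp in common (chr5:98166777-98168182), whereas the downstream one was covered in 2 WT and 2 KO libraries and missed in WT replicate 3 and KO replicate 2. The downstream region also held the promoter of the antisense gene A730035I17Rik.

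Prdm6, a repressor in smooth muscle cells, was marked over its first start sites in every library. Its total signal was 58336, 55048 and 6350 in WT replicates 1 to 3 and 73034, 60369 and 39062 in KO replicates 1 to 3. The KO values of replicates 1 and 2 were above those of WT, KO replicate 3 was below WT replicates 1 and 2, and the groups overlapped. Merged over all libraries, the peaks formed a domain of 15.1 kb (chr18:53459487-53474549) that spanned the first 3 start sites of a gene of 112 kb. The 2 start sites further inside were covered in 0 libraries. All 6 libraries shared 1111 bp over the first start sites. Only KO replicate 2 had a peak deeper in the gene, from 15.6 to 17.6 kb.

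Prdm14, a regulator of pluripotency and primordial germ cells, had 1 peak in each library. The total signal was 20250, 14200 and 3822 in WT replicates 1 to 3 and 35172, 17172 and 14937 in KO replicates 1 to 3. KO was higher than the same-numbered WT library in all 3 pairs, but WT replicate 1 exceeded KO replicates 2 and 3, so the groups overlapped. In centred log2 values KO was again higher in all 3 pairs. There WT replicate 1 (0.32) exceeded KO replicate 2 (-0.17) but not KO replicate 3 (0.76). Peak widths were 4125, 3457 and 1437 bp in WT and 7446, 4069 and 4210 bp in KO. The bases common to all 6 libraries (chr1:13125479-13126915) were those of the WT replicate 3 peak, which started 248 bp inside the gene. In the other 5 libraries the peak ran over the start site.

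Prdm1, also known as Blimp1, drives plasma cell differentiation and primordial germ cell specification, and it was the least often called member. Its total signal was 13166 in WT replicate 1, 8506 in WT replicate 2 and 21300 in KO replicate 1, and no peak was called in WT replicate 3, KO replicate 2 or KO replicate 3. These peaks fell at 2 separate places. One lay at the most upstream start site, which belongs to a transcript with a retained intron, in WT replicate 1 and KO replicate 1. The other lay at an inner coding start site, 70.2 to 73.1 kb into the gene, in WT replicate 2 and KO replicate 1. The strongest Prdm1 peak ranked above only 23.8% to 53.8% of peaks of its library.

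Prdm16 is required for blood stem cell maintenance and for brown fat identity, and here its body was free of peaks. Its total signal was 10535 in WT replicate 1, 11728 in WT replicate 2, 17355 in KO replicate 1 and 7775 in KO replicate 2, with no peak in either replicate 3 library. In each case the single peak lay upstream, between positions -7.7 and -3.72 kb from the first start site, and it covered an annotated start site in 0 libraries. With a promoter of 1 kb either side of a start site, Prdm16 was called in 0 libraries. The 4 peaks shared 1790 bp, and 0 of 6 libraries had a peak in the gene body of 321 kb. All 4 peaks were of ordinary or low strength, ranking above 7.02% to 60.3% of the peaks of their library.

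**Figure D3:**
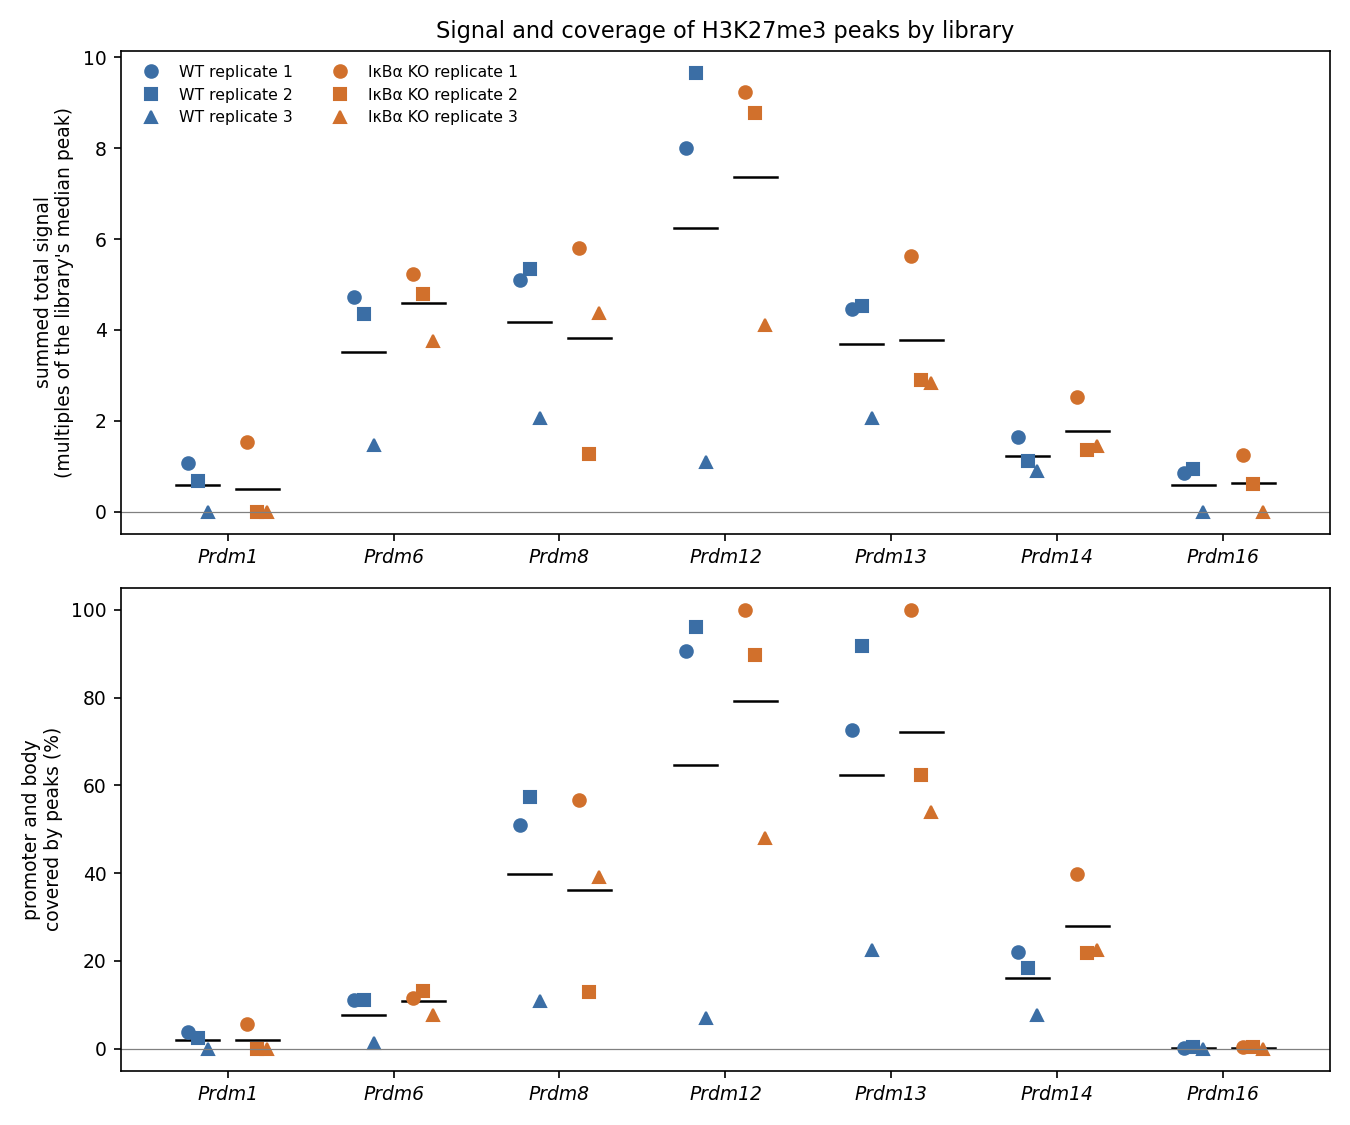
Upper, summed total signal of each gene's peaks as multiples of the median peak of its library; lower, percentage of promoters and gene body covered by peaks. Each symbol is 1 library, at 0 where no peak was called, and the black line is the group mean. Circle, square and triangle are replicates 1, 2 and 3, blue is WT and orange is IκBα KO. On these scales, which do not remove depth in full, triangles (the 50 bp libraries) are low at most genes. WT and KO overlap at all 7.

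Because total signal rises with depth, it was also divided by the median peak of the same library. That median was taken over 1047 to 6013 peaks, so the scaling does not remove depth in full. Prdm6 in KO replicate 3 was lowest of the KO libraries on this scale (3.76) but highest of all 6 in centred log2 values (2.14). Prdm12 had the highest mean, at 6.25 ± 4.54 library medians in WT and 7.38 ± 2.83 in KO (SD, n = 3 each). Prdm8, Prdm13 and Prdm6 followed, at 4.17 ± 1.82, 3.68 ± 1.41 and 3.52 ± 1.78 in WT and 3.81 ± 2.32, 3.78 ± 1.60 and 4.59 ± 0.754 in KO, and these neighbours in the order did not differ beyond their spread. Prdm14 came next, at 1.22 ± 0.383 in WT and 1.77 ± 0.647 in KO. Prdm16 (0.594 ± 0.516 and 0.619 ± 0.621) and Prdm1 (0.580 ± 0.539 and 0.508 ± 0.880) were lowest, counting an uncalled library as 0. Within the replicate 3 libraries the order differed: Prdm12 was at 1.09 in WT, below Prdm8, Prdm13 and Prdm6 (2.07, 2.06 and 1.48), and at 4.11 in KO, below Prdm8 (4.38). The maximum signal, the highest number of overlapping fragments, separated the members less. Its highest value at a member was 5 to 20 fragments wherever a peak was called, and Prdm12 had the highest in WT replicate 2 (15) and KO replicate 2 (14) but not in the other libraries.

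To ask whether loss of IκBα changed the mark at these genes, log2 values of total signal, centred on the median of their library, were compared between genotypes with limma over all 2900 coding genes called in at least 3 libraries. None of the genes passed an adjusted p of 0.05 (0% called, 0 of 7 members), while 39 had an unadjusted p below 0.05 and the smallest adjusted p was 0.999. Of the members, Prdm12 had a log2 difference (KO minus WT) of 0.58 ± 0.53 (SE), Prdm6 0.46 ± 0.45, Prdm14 0.45 ± 0.46, Prdm13 -0.03 ± 0.45, Prdm1 -0.07 ± 0.50, Prdm16 -0.19 ± 0.46 and Prdm8 -0.35 ± 0.57. All 7 differences were therefore about as large as their error or smaller. The median over the members was -0.03 and over all genes tested 0.02. With 3 libraries per genotype, differences of the size of these errors were not detectable. In this comparison 21.4% of the values were uncalled libraries set to the smallest called total of that library, most of them in WT replicate 3.

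Without any value filled in, no gene passed either. Over the 762 coding genes called in all 6 libraries 0 passed (smallest adjusted p = 0.991, limma; 7 with an unadjusted p below 0.05), and the 5 members tested lay between -0.49 (Prdm8) and 0.44 (Prdm12), with a median of 0.31 against -0.05 over all genes of that comparison. Over the 717 regions called in all 6 libraries 0 passed (0% called; smallest adjusted p = 0.992, limma; 8 with an unadjusted p below 0.05). The 5 member regions ranged from -0.39 ± 0.40 at Prdm8 to 0.47 ± 0.49 at Prdm12 (SE). The Prdm12 region counts as called in all 6 libraries although 0 bp of it were common to all 6. Single libraries set several signs. Within the 75 bp libraries the Prdm12 difference was -0.02 ± 0.36 and without WT replicate 3 it was -0.10, whereas that of Prdm8 was -1.0 ± 0.64 within the 75 bp libraries and 0.40 ± 0.48 without KO replicate 2. Within the 75 bp libraries Prdm6 fell to 0.08 ± 0.38 and its region to -0.09 ± 0.33. Prdm14 was positive within the 75 bp libraries as well (0.39 ± 0.48). With maximum signal, Prdm14 was at -0.30 ± 0.40 in the comparison with filled-in values, in which the median over all genes was -0.13, and its region was at 0.08 ± 0.21 among the regions called in all 6 libraries. The 50 bp libraries, 1 of each genotype, allow no test.

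**Figure D4:**
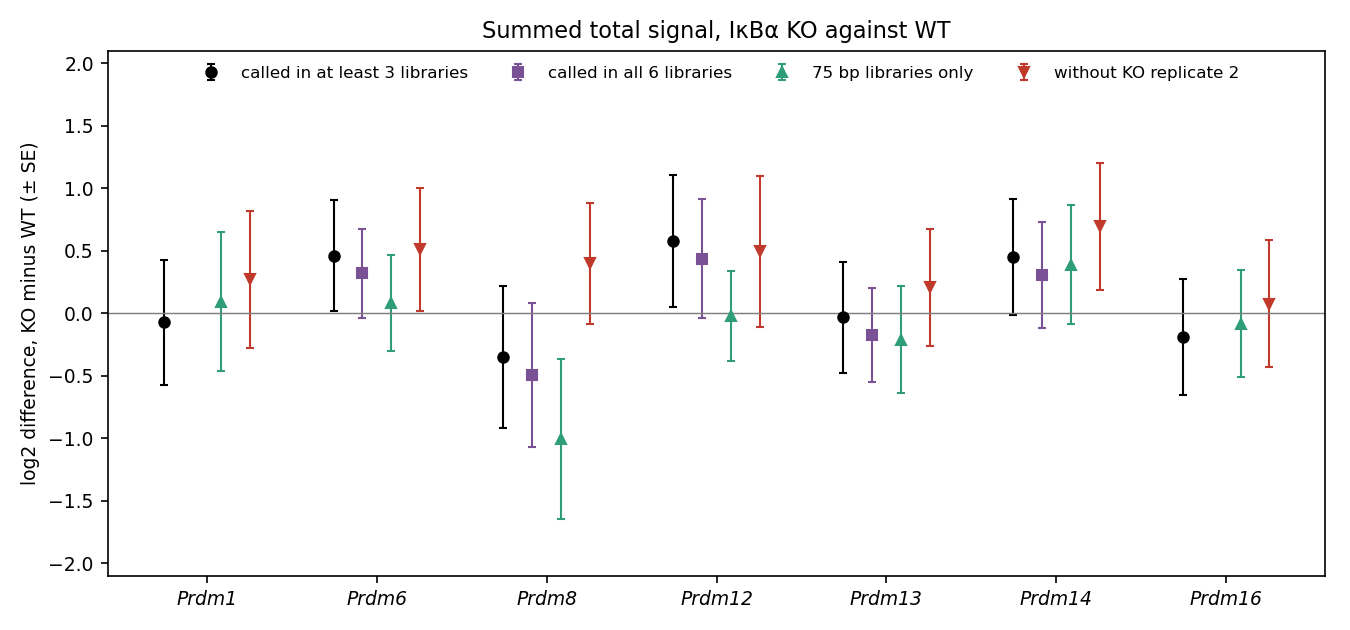
Log2 difference in summed total signal between IκBα KO and WT (vertical axis, with SE) for each gene, from limma over genes called in at least 3 libraries (black circles), over genes called in all 6 (purple squares), within the 75 bp libraries (green triangles) and without KO replicate 2 (red triangles). None of the differences passed an adjusted p of 0.05, and without KO replicate 2 the sign turns from negative to positive at Prdm1, Prdm8, Prdm13 and Prdm16.

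Genes that work with the members were looked at from a list of 29 textbook partners and targets. Of these, 20 had a promoter peak in at least 1 library, 12 in all 6, 12 in all 3 WT and 15 in all 3 KO libraries, against the same 15.8%, 2.65%, 3.01% and 7.12% of coding genes. The neural partners were called in nearly all libraries, with Ptf1a and Isl1 lacking a promoter peak in WT replicate 3. All 5 partners of Prdm13 (Ptf1a, Tlx3, Tlx1, Lbx1 and Pax2), both of Prdm12 (Neurog1 and Isl1) and both of Prdm8 (Bhlhe22 and Cdh11) had a peak in at least 5 libraries. Like Prdm8, Bhlhe22 was lower in KO replicate 2 than in the other 75 bp libraries, with a promoter total signal of 16129, 21435 and 5056 in WT replicates 1 to 3 and 34523, 9334 and 17754 in KO replicates 1 to 3. Cdh11, a cadherin gene, had 20297, 29357 and 3948 in WT and 30763, 7882 and 13880 in KO, again lowest of the 75 bp libraries in KO replicate 2. Of the 17 partner promoters called in all 4 of the 75 bp libraries, KO replicate 2 was lowest at 7, WT replicate 1 at 5, KO replicate 1 at 4 and WT replicate 2 at 1.

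Among the partners of the other members, 11 of 20 had a promoter peak in at least 1 library. Of the Prdm1 partners, Pax5, the B cell identity factor, and Irf4, which promotes plasma cell fate, were called in all 6 libraries, with a promoter total signal of 75426, 113186 and 8064 for Pax5 in WT replicates 1 to 3 and 73510, 73987 and 46169 in KO. Ciita, the activator of MHC class II genes, was called in 3 libraries, and Bach2, Bcl6 and Xbp1 had a promoter peak in 0. Of the Prdm14 partners, the germline and trophoblast factor Tfap2c and the pluripotency factor Klf4 were called in all 6 libraries, Pou5f1 in 4 and Nanog in 2, and Dppa3 and Nanos3 in 0. Of the Prdm16 partners, Ebf2, a brown fat precursor factor, was called in 6 libraries, the fat cell regulator Pparg in 5 and Ucp1, the uncoupling protein of brown fat, in 3, and Ppargc1a and Cebpb in 0. Of those of Prdm6, the smooth muscle coactivator gene Myocd was called in 4 libraries and Acta2 and Srf in 0. In the limma comparison, which sums promoter and body peaks, 20 partners were tested and 0 passed. Differences ran from -0.55 (Myocd) to 1.02 (Isl1) with a median of 0.06. These 20 are not those with a promoter peak: Bcl6 was tested without one, and Nanog was not tested. Isl1, a sensory neuron factor, had a difference of 1.02 ± 0.44 (SE; limma adjusted p = 0.999). Its promoter peaks summed to 15657 and 17408 in replicates 1 and 2 of WT, with no call in replicate 3, and to 35614, 16188 and 15854 in KO. These promoter totals, not scaled to depth, overlapped between the groups. Of 20 Polycomb subunit genes, 4 had a promoter peak in at least 1 library and 2 in all 6, against 15.8% and 2.65% of coding genes.

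Genes whose centred signal ran most like a member's over the 6 libraries were named by the smallest Euclidean distance among 2900 coding genes, leaving out genes that share a peak with it. They were Rfx4 and Pax9 for Prdm6 (distance 0.37 and 0.39 in log2 units), Grin1 and Wnt10a for Prdm12 (0.46 for both), Prrt4 and Tfap2c for Prdm13 (0.45 and 0.48) and Hs6st3 and Syt13 for Prdm14 (0.39 and 0.43). Prdm16 was nearest to Aff3 and Degs2 (0.24 and 0.29). Both replicate 3 values of Prdm16 were filled in at the smallest called total. These distances share library depth and are a description without a test.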

How the data were processed

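H3K27me3 CUT&Tag peaks were analysed for 3 WT and 3 IκBα KO libraries, grouped by their labels. Per the labels and methods, the authors trimmed reads with Trim Galore 0.6.6, aligned them to GRCm38 with Bowtie2 2.4.4, removed duplicates and called peaks per library with SEACR 1.3 in stringent mode (top 0.5%, no IgG). The deposited signal columns hold the total and the maximum coverage of each peak, as whole numbers without scaling to depth. Read totals per library are not in these peak lists.

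Gene models were from GENCODE M21 and promoters from RefSeq (GRCm38.p6). Peaks were assigned to genes by 1 bp of overlap. Mitochondrial peaks were left out of the fits. Regions were merged peaks, and genes were summed over their peaks, so overlapping genes share peaks. Log2 total signal was centred on library medians and tested two-sided with limma 3.58.1 (R 4.3.3) with Benjamini-Hochberg adjustment at 0.05, after checks on simulated data. Figures and counts used Python 3.11.15.

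To check pairing, deviations from group means over 717 regions were correlated for each WT and KO pair that shares a number (r = 0.27, 0.31 and 0.47 for replicates 1, 2 and 3). WT replicate 2 and KO replicate 1 also correlated (0.27), so the numbers separate replicate 3 more clearly than 1 from 2. Each same-numbered pair exceeded 0.1, and the labels' replicate numbers were used as a block in an alternative. WT replicate 1 and KO replicate 2 were at 0.098, and pairs of a replicate 3 with another number were negative (-0.27 to -0.44). The members and lists were chosen with earlier results of these data known. Named were the 7 members, the listed family, partner, Polycomb and marker genes, genes with promoters in the members' regions, and the 2 genes nearest in pattern to each member called in at least 4 libraries, except Prdm8. A few genes of these lists and the matches of Prdm8 are not reported here.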

Additional observations from a re-analysis of the deposited data

How the results depend on the processing

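No region or coding gene passed an adjusted p of 0.05 in limma under 13 alternatives of the region comparison and 18 of the gene comparison, and with the replicate block the counts were also 0 and 0, so the pairing changed no call. The lowest adjusted p of a member was 0.895. Of 114 member differences under alternatives, 17 changed sign, and in each the cause was not tested. With maximum signal Prdm6, Prdm12 and Prdm14 were at -0.34, -0.46 and -0.30. Within the 75 bp libraries Prdm1 was at 0.09 and Prdm12 at -0.02 (-0.04 over genes called in all 4, an alternative chosen after seeing the data). With genes called in at least 1 library Prdm1 was at 0.01 and Prdm13 at 0.05, and with the same number of top peaks in each library Prdm6 was at -0.18. Leaving out each library in turn, Prdm8 ranged from -0.89 to 0.40, Prdm12 from -0.10 to 0.91, Prdm13 from -0.23 to 0.21 and Prdm16 from -0.47 to 0.08, whereas Prdm6 (0.25 to 0.66) and Prdm14 (0.06 to 0.69) kept their sign. Prdm1 was tested only without WT replicate 3, KO replicate 2 or KO replicate 3, and ranged from -0.20 to 0.27. The sign changed without WT replicate 3 for Prdm1, Prdm12 and Prdm16, without KO replicate 2 for Prdm1, Prdm8, Prdm13 and Prdm16, and without WT replicate 1 for Prdm13. When single libraries were left out, the count of members with a promoter peak stayed at 7, that in all WT libraries ranged from 3 to 7 (7 without WT replicate 3) and that in all KO libraries from 5 to 6. With the 75 bp libraries alone, or when 2 of 3 libraries sufficed, 7 were called in WT. With 1047 top peaks in each library, 5 members had a promoter peak (7.79% of coding genes did). Of these 3, Prdm6, Prdm8 and Prdm13, were called in all 3 WT libraries (1.26%) and 2, Prdm6 and Prdm12, in all 3 KO libraries (1.92%). With promoters of 1 kb either side of a start site 6 had a promoter peak (15.1%), 4 of them, Prdm14 included, in all 3 WT libraries (3.09%). With a peak over the start site itself 6 did (3172 of 21938 coding genes), 2 in all 3 WT (2.34%) and 4 in all 3 KO libraries (6.26%), and with only peaks above the library's median 4 were called in all 3 KO libraries (3.52%). Scaling to the same summed signal moved the median difference over all genes from 0.02 to -0.34 and those of Prdm6, Prdm12 and Prdm14 to 0.11, 0.23 and 0.09. With promoter peaks only Prdm12 was at 0.93, and with covered length Prdm1 was at -1.04. Added after seeing the data were also covered length and the replicate block over genes called in all 6 libraries and a peak over the start site itself. The few libraries and the typical maximum of 6 to 10 fragments limit the precision of each peak.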
